A study of Mus musculus with 11 samples.

Results

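The Fc gamma receptor genes Fcgr1, Fcgr2b, Fcgr3 and Fcgr4 were followed with the shared signalling chain gene Fcer1g and the neonatal receptor gene Fcgrt across every library of a study of cultured mouse microglia. The 6 genes were taken by symbol from a deposited expression table of 34745 genes, and all 6 were among the 10938 genes expressed well enough to be tested (1 FPKM or more in 2 or more libraries). All cells were microglia of adult C57BL/6 mice (6 to 8 weeks of age), taken from the cerebrum. Every group, Control included, was cultured for 10 to 14 days in medium that held 5 ng/ml TGF-beta1 and 10 ng/ml M-CSF. The Control group received nothing further (n = 3 libraries). The Pam3CSK4 group received this synthetic lipopeptide, an agonist of Toll-like receptor 2, at 100 ng/ml for 24 h (n = 2). The IFN-gamma group received interferon-gamma at 20 ng/ml for 24 h (n = 3). The combined group, Pam3CSK4+IFN-gamma, received the agonist first and then interferon-gamma at the same doses and times (n = 3). In 1 label field the agonist's name ends in another digit for combined replicates 2 and 3, which were grouped with replicate 1 by their titles. The labels do not state a washout, the harvest time of the groups given a single agent, or whether replicates were separate cultures or animals, so p-values measure the spread between these libraries only. They also name no group given Pam3CSK4 and then medium alone. In the combined group the presence of interferon-gamma and the time since the agonist therefore cannot be told apart.

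Fc gamma receptors bind the Fc part of immunoglobulin G and let macrophages, microglia among them, take up particles and immune complexes coated with antibody. The receptors encoded by Fcgr1, Fcgr3 and Fcgr4 are activating: they sit in the membrane with the gamma chain made from Fcer1g, whose ITAM motif is phosphorylated by Src-family kinases and recruits the kinase Syk. Fcgr2b encodes the inhibitory receptor, whose own ITIM motif recruits the lipid phosphatase made from Inpp5d and damps the same signal. Fcgrt encodes the heavy chain of the neonatal Fc receptor, which pairs with beta-2-microglobulin, works inside endosomes and returns immunoglobulin G to the surface instead of letting it be degraded.

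Libraries held 15033702 to 20321017 counts. Levels are in FPKM, the deposited counts scaled to gene length and library total. The 12 microglial markers were all above 1 FPKM in the Control and IFN-gamma libraries, while in the 5 libraries given Pam3CSK4 Siglech was at 0.421 to 0.941 FPKM and Gpr34 at 0.354 to 0.614. The summed level of the 12 was 8059 to 11600 FPKM in Control, 9259 to 9873 with IFN-gamma, 5391 to 5774 with Pam3CSK4 and 4850 to 5113 with both. In bulk RNA fewer cells of a type and less RNA per cell cannot be told apart. Transcripts of mural cells and fibroblasts stood out in 3 libraries, where the 12 markers of these cells, led by Acta2 and Tagln, summed to 2262 FPKM (Control replicate 3), 122 FPKM (IFN-gamma replicate 1) and 55.8 FPKM (combined replicate 3). Results that depend on these stromal-marked libraries are given with and without them. Cells that share these receptors were followed by marker lists. Mast cell markers summed to at most 0.0849 FPKM and T and NK cell markers to at most 1.90. Neutrophil markers summed to 4.31 to 8.86 FPKM without Pam3CSK4 and 10.4 to 18.0 with it. Of these, Camp was at most 0.175 without Pam3CSK4 and 2.09 to 4.33 with it, Mmp8 was at 0.262 to 1.07 and 1.85 to 4.26, and S100a8 at 3.70 to 7.77 and 4.56 to 11.3, while S100a9 reached 0.147, Ly6g reached 0.0472, and Mpo and Elane were listed at 0. Monocyte markers summed to 1.97 to 2.60 FPKM in Control, 4.19 to 5.51 with IFN-gamma, 9.96 to 10.6 with Pam3CSK4 and 10.2 to 11.0 with both. Ly6c2 was at most 0.0610 FPKM in Control, 2.54 to 4.61 with Pam3CSK4 and 5.65 to 6.97 with both, and Itga4 was at 1.66 to 2.40, 5.75 to 7.13 and 3.50 to 4.07 in the same order, while Ccr2 reached 0.263 in any library and 0.0706 in those given Pam3CSK4. B-cell markers summed to 0.780 to 1.98 FPKM without Pam3CSK4 and 11.4 to 21.8 with it, from Cd79b and Ighm, while Ms4a1 reached 0.0159 and Pax5 0.00522. Border macrophage markers summed to 23.5 to 40.7 FPKM in Control, 9.12 to 15.7 with IFN-gamma, 98.9 to 103 with Pam3CSK4 and 56.4 to 60.4 with both. Ms4a7 was at 14.2 to 20.8 FPKM in Control and 89.4 to 94.9 with Pam3CSK4, and Pf4 at 5.21 to 7.78 and 6.96 to 8.15. In the same order F13a1 was lower, at 3.51 to 11.0 and 0.766 to 1.36, as was Mrc1, at 0.603 to 0.876 and at most 0.0514. Cd163 and Lyve1 reached 0.0482 and 0.107 in any library. The part of these markers in the results below was not tested.

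Pam3CSK4 lowered most of these genes and interferon-gamma raised every one of them. In each comparison a gene was called changed when the adjusted p of edgeR's quasi-likelihood test, over all 10938 genes, was under 0.05. With Pam3CSK4 against Control, Fcer1g rose, Fcgr3, Fcgr4, Fcgr2b and Fcgrt fell, and Fcgr1 was not called, in a comparison where 41.4% of all genes tested were called (20.0% higher and 21.4% lower). With IFN-gamma against Control all 6 members rose, where 41.6% of genes were called and 20.0% were called higher. The combined group against Control had 4 members higher and Fcgr3 and Fcgrt lower, where 47.6% were called. Against IFN-gamma alone it had Fcer1g higher, 4 members lower and Fcgr2b not called, where 34.2% were called (17.0% higher and 17.2% lower). Against Pam3CSK4 alone the 4 receptors Fcgr1, Fcgr2b, Fcgr3 and Fcgr4 were higher and Fcer1g and Fcgrt were not called, where 9.10% of genes were called (6.06% higher and 3.04% lower). The 3 comparisons with Control share its libraries, as do the comparisons with the combined group, so their values are set side by side and not correlated.

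**Figure D1:**
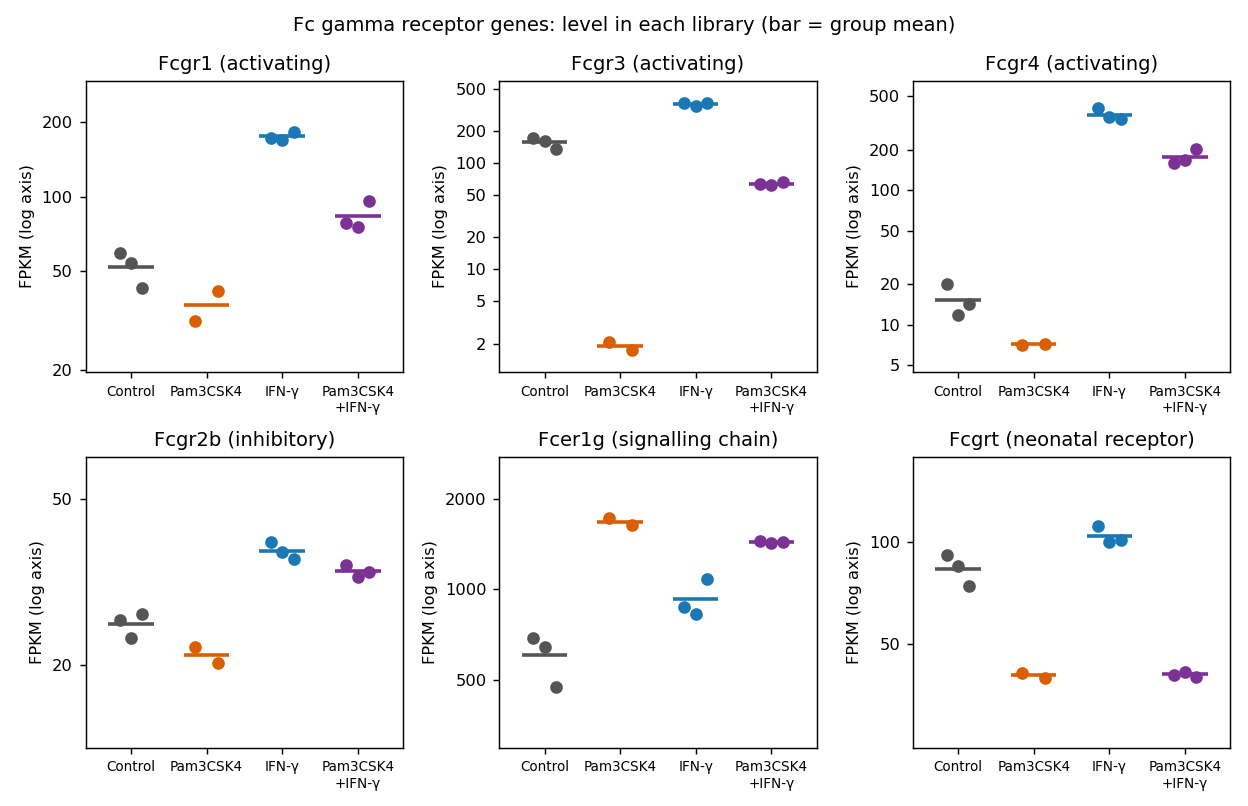
FPKM of each gene in every library on a log axis, by group; each point is 1 library and each bar the group mean. Fcgr3 lies near 2 FPKM in both Pam3CSK4 libraries and at 62.3 FPKM or more in every other library, while Fcer1g is highest in the Pam3CSK4 libraries.

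Fcgr1 encodes the high-affinity activating receptor and lies on the minus strand of chromosome 3 at chr3:96282909-96293969 (mm10). Interferon-gamma raised it, and its level with interferon-gamma was lower where Pam3CSK4 had been given first. The 250 bases before its annotated start, chr3:96293970-96294219 on the minus strand, are shown because this is a classic interferon-gamma response gene and its window holds a gamma-activated site. Promoter sequences are from RefSeq on GRCm38.p6 (mm10), read 5′ to 3′ on the gene's strand with exon bases left out, and capitals mark the motifs searched on both strands.
Fcgr1: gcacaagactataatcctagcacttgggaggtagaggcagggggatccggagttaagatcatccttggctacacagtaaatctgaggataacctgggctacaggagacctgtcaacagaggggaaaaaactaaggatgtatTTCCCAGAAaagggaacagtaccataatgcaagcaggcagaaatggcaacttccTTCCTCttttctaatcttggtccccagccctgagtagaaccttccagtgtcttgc
The first capitals match GAS (TTCNNNGAA), an element of genes that respond to interferon-gamma, 109 to 101 bases before the start, and the second match the PU box (GAGGAA, here as TTCCTC on the strand shown), read by the myeloid factor PU.1, 55 to 50 bases before it. GAS occurred in 7.02% and the PU box in 23.3% of 32851 RefSeq promoters over the same 250 bases. A match describes the letters only, since no binding was measured.

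The Control libraries had 59.2, 54.1 and 42.6 FPKM of Fcgr1, and the Pam3CSK4 libraries had 31.3 and 41.8. The IFN-gamma libraries had 172.7, 169.9 and 183.0 FPKM, and the combined libraries 78.6, 75.6 and 96.4. No group's range overlapped another's, and the order was IFN-gamma, combined, Control, Pam3CSK4, with the lowest Control library and the higher Pam3CSK4 library next to each other. Here and for the members below, such separation only describes these libraries. The share of all genes tested that separate in this way was not counted. By edgeR, IFN-gamma against Control changed Fcgr1 by 1.84 ± 0.19 on the log2 scale (standard error, adjusted p = 6.84e-05), a 3.58-fold rise. The combined group was -1.08 ± 0.18 against IFN-gamma alone (edgeR adjusted p = 0.00171) and 1.30 ± 0.21 against Pam3CSK4 alone (edgeR adjusted p = 0.00473; 1.09 with adjusted p = 0.0561 without Pam3CSK4 replicate 1). It was above Control by 0.76 ± 0.18 (edgeR adjusted p = 0.00698), and by 0.49 without the 3 stromal-marked libraries (edgeR adjusted p = 0.0175). Pam3CSK4 against Control was -0.53 ± 0.21 (edgeR adjusted p = 0.0628), which became -0.70 without Control replicate 3 (edgeR adjusted p = 0.00452) and -0.70 without all 3 of those libraries (edgeR adjusted p = 0.00334).

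Fcgr3 encodes the low-affinity activating receptor and lies on the minus strand at chr1:171051174-171064935, in a cluster with Fcgr4 and Fcgr2b. It was the leading Fc gamma receptor transcript of Control cells by FPKM and was lowest of all with Pam3CSK4. Its level was higher in the combined group than in the Pam3CSK4 group. The window before its start, chr1:171059404-171059626 on the minus strand, is shown because this gene had the greatest change of the 6. It lies inside the gene's annotated span, ends at the base before the first of its annotated RefSeq starts, and leaves out 27 bases of an upstream exon.
Fcgr3: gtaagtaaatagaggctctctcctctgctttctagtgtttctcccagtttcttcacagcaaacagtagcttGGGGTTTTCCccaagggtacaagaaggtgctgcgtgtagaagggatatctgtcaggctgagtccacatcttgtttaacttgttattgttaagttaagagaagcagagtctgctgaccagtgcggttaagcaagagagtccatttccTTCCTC
The first capitals match the NF-kappaB consensus, 152 to 143 bases before the start, and the second the PU box as TTCCTC on the strand shown, 6 to 1 bases before it. The NF-kappaB consensus occurred in 7.25% of the 32851 promoters. Neither GAS nor the core of the interferon-stimulated response element (ISRE, GAAA and GAAA with 2 bases between them) was found in these letters.

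Fcgr3 stood at 174, 162 and 135 FPKM in the Control libraries and at 2.08 and 1.73 FPKM in the Pam3CSK4 libraries, where 146 and 103 counts remained. With IFN-gamma it stood at 371, 342 and 368 FPKM, and in the combined libraries at 64.0, 62.3 and 66.3. The 4 groups did not overlap, in the order IFN-gamma, Control, combined, Pam3CSK4. By edgeR, Pam3CSK4 against Control was -6.39 ± 0.21 (log2, adjusted p = 1.13e-07), a level 83.8-fold lower, and this was 165th in size of change among the 10938 genes. IFN-gamma against Control was 1.29 ± 0.14 (edgeR adjusted p = 9.62e-05). The combined group was -2.50 ± 0.14 against IFN-gamma alone (edgeR adjusted p = 2.58e-06) and -1.21 ± 0.14 against Control (edgeR adjusted p = 8.51e-05). Against Pam3CSK4 alone it was 5.18 ± 0.20 (edgeR adjusted p = 9.44e-07). The effect of Pam3CSK4 therefore differed between groups without and with IFN-gamma, by 3.89 ± 0.22 on the log2 scale (edgeR interaction, adjusted p = 2.99e-05). IFN-gamma and time since the agonist cannot be told apart in this difference. Among the 6 members Fcgr3 alone was called in this interaction, where 16.0% of all genes were called (8.01% in each direction). Without the 3 stromal-marked libraries its interaction was 4.02, and there, as with DESeq2, Fcer1g was called as well.

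Fcgr4 encodes the activating receptor of intermediate affinity that mice carry beside Fcgr3, on the plus strand at chr1:171018920-171029761. It was the lowest of the 4 receptor genes by FPKM in Control cells and had the greatest rise with interferon-gamma. The bases before its start, chr1:171018676-171018919 on the plus strand with 6 exon bases left out, are shown because they hold an ISRE core, the element read by IRF factors.
Fcgr4: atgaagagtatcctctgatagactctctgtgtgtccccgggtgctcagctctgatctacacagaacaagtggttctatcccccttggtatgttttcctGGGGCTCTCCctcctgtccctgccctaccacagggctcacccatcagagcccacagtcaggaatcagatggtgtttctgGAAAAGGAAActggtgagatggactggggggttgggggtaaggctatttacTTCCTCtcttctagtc
In order, the capitals match the NF-kappaB consensus 152 to 143 bases before the start, the ISRE core as GAAAAGGAAA 73 to 64 bases before it, and the PU box as TTCCTC 22 to 17 bases before it. The ISRE core occurred in 2.98% of the 32851 promoters. All 3 activating receptor genes held a PU box in this window, while the windows of Fcgr2b, Fcer1g and Fcgrt held none of the 4 motifs searched. The Fcgr2b window lies inside the gene's annotated span, and 203 of its 250 bases are in annotated exons of Fcgr2b or the antisense gene Gm38204. The absence of motifs there thus describes mostly exon sequence. Exon bases numbered 16 for Fcer1g and 29 for Fcgrt.

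The Control libraries held 20.0, 11.7 and 14.3 FPKM of Fcgr4 and the Pam3CSK4 libraries 7.09 and 7.12. Those given IFN-gamma held 407, 350 and 342 FPKM, and the combined libraries 158, 167 and 203. The groups did not overlap, and both groups given interferon-gamma lay far above both groups without it. By edgeR, IFN-gamma against Control was 4.67 ± 0.22 on the log2 scale (adjusted p = 5.16e-07), a 25.5-fold rise. Pam3CSK4 against Control was -1.13 ± 0.22 (edgeR adjusted p = 0.00310), and the combined group against IFN-gamma was -1.07 ± 0.19 (edgeR adjusted p = 0.00205). These values lie close together, and their difference, the interaction, was 0.06 ± 0.28 (edgeR adjusted p = 0.898), so a difference between the Pam3CSK4 effects was not detected at this standard error. The combined group was above Pam3CSK4 alone by 4.74 ± 0.26 (edgeR adjusted p = 6.14e-06) and above Control by 3.61 ± 0.21 (edgeR adjusted p = 1.21e-06).

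Fcgr2b, the inhibitory receptor gene on the minus strand at chr1:170958617-170976547, changed less than Fcgr3 and Fcgr4 in each comparison with Control. Its Control libraries had 25.6, 23.1 and 26.4 FPKM and its Pam3CSK4 libraries 22.0 and 20.3. With IFN-gamma it had 39.4, 37.3 and 35.9 FPKM, and with both agents 34.7, 32.6 and 33.5. The order of groups was IFN-gamma, combined, Control, Pam3CSK4 without overlap, over a range far narrower than that of the activating receptors. By edgeR, IFN-gamma against Control was 0.68 ± 0.07 on the log2 scale (adjusted p = 8.18e-05), the combined group against Control was 0.51 ± 0.07 (adjusted p = 0.000295), and the combined group against Pam3CSK4 was 0.77 ± 0.08 (adjusted p = 0.000343). The combined group against IFN-gamma was -0.17 ± 0.07 (edgeR adjusted p = 0.0947), which DESeq2 and upper-quartile scaling called. Pam3CSK4 against Control was -0.26 ± 0.08 (edgeR adjusted p = 0.0267), and this call was lost without Control replicate 1 (-0.22, edgeR adjusted p = 0.0699), Pam3CSK4 replicate 1 (-0.31, edgeR adjusted p = 0.0583) or Pam3CSK4 replicate 2 (-0.21, edgeR adjusted p = 0.183). Of the 50-base stretches in annotated Fcgr3 transcripts 10.2% also occur in Fcgr2b, and the sources used here do not say how reads from such stretches were counted. In the libraries where Fcgr3 was near 2 FPKM, Fcgr2b stood at 20.3 FPKM or more, and whether reads from shared stretches are part of the remaining Fcgr3 count was not tested.

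Fcer1g, on the minus strand at chr1:171229572-171234365, supplies the ITAM chain for all 3 activating receptors and rose with Pam3CSK4, where Fcgr3 and Fcgr4 fell and Fcgr1 was not called. The Control libraries had 689, 645 and 474 FPKM, and the Pam3CSK4 libraries had 1735 and 1637. The IFN-gamma libraries had 876, 827 and 1080 FPKM, and the combined libraries 1454, 1425 and 1442. The groups did not overlap, and both groups given Pam3CSK4 were above both without it. By edgeR, Pam3CSK4 against Control was 1.45 ± 0.20 on the log2 scale (adjusted p = 0.000440), a 2.74-fold rise, and IFN-gamma against Control was 0.71 ± 0.18 (adjusted p = 0.0126). The combined group was above Control by 1.33 ± 0.19 (edgeR adjusted p = 0.000317), and against Pam3CSK4 alone it was -0.12 ± 0.20 (edgeR adjusted p = 0.802). Against IFN-gamma alone it was 0.62 ± 0.18 (edgeR adjusted p = 0.0276), and leaving out IFN-gamma replicate 1 or 2 or any 1 combined library gave 0.54 to 0.64 with edgeR adjusted p from 0.0562 to 0.0914. The interaction was -0.83 ± 0.27 (edgeR adjusted p = 0.0694), and it was called without Control replicate 3 at -0.64 (edgeR adjusted p = 0.0154) and without the 3 stromal-marked libraries at -0.69 (edgeR adjusted p = 0.0226).

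Fcgrt, on the minus strand at chr7:45092993-45103822, followed Pam3CSK4 whether or not interferon-gamma was given. It had 91.5, 84.6 and 74.0 FPKM in Control and 41.2 and 39.7 with Pam3CSK4. With IFN-gamma it had 111, 99.8 and 101 FPKM, and with both agents 40.7, 41.6 and 40.1. The groups given Pam3CSK4 overlapped each other and lay below both others, and IFN-gamma lay above Control. By edgeR, Pam3CSK4 against Control was -1.07 ± 0.13 on the log2 scale (adjusted p = 0.000235) and the combined group against IFN-gamma was -1.36 ± 0.12 (adjusted p = 3.41e-05). The combined group was -0.95 ± 0.12 against Control (edgeR adjusted p = 0.000143) and 0.12 ± 0.13 against Pam3CSK4 alone (edgeR adjusted p = 0.662). IFN-gamma against Control was 0.41 ± 0.12 (edgeR adjusted p = 0.0189), and it was 0.25 without the 3 stromal-marked libraries (edgeR adjusted p = 0.0298) and 0.38 without IFN-gamma replicate 1 (edgeR adjusted p = 0.0505). Its partner gene B2m shared only part of this pattern: it had 4352 ± 1000 FPKM in Control (SD, n = 3), 4701 ± 351 with Pam3CSK4 (SD, n = 2), 9331 ± 867 with IFN-gamma (SD, n = 3) and 5841 ± 624 with both (SD, n = 3). B2m rose with IFN-gamma by 1.19 ± 0.20 on the log2 scale (edgeR adjusted p = 0.00145) and was at 0.08 ± 0.22 with Pam3CSK4 (edgeR adjusted p = 0.800). In the combined group against IFN-gamma B2m changed by -0.69 ± 0.20 (edgeR adjusted p = 0.0256). That call was lost with no filter, and without IFN-gamma replicate 2 or 3 or combined replicate 2 or 3. The B2m level per Fcgrt level was 52.0 ± 9.67 in Control (SD, n = 3) and 90.3 ± 13.3 with IFN-gamma (SD, n = 3). It was 116 ± 5.66 with Pam3CSK4 (SD, n = 2) and 143 ± 15.8 with both agents (SD, n = 3).

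**Figure D2:**
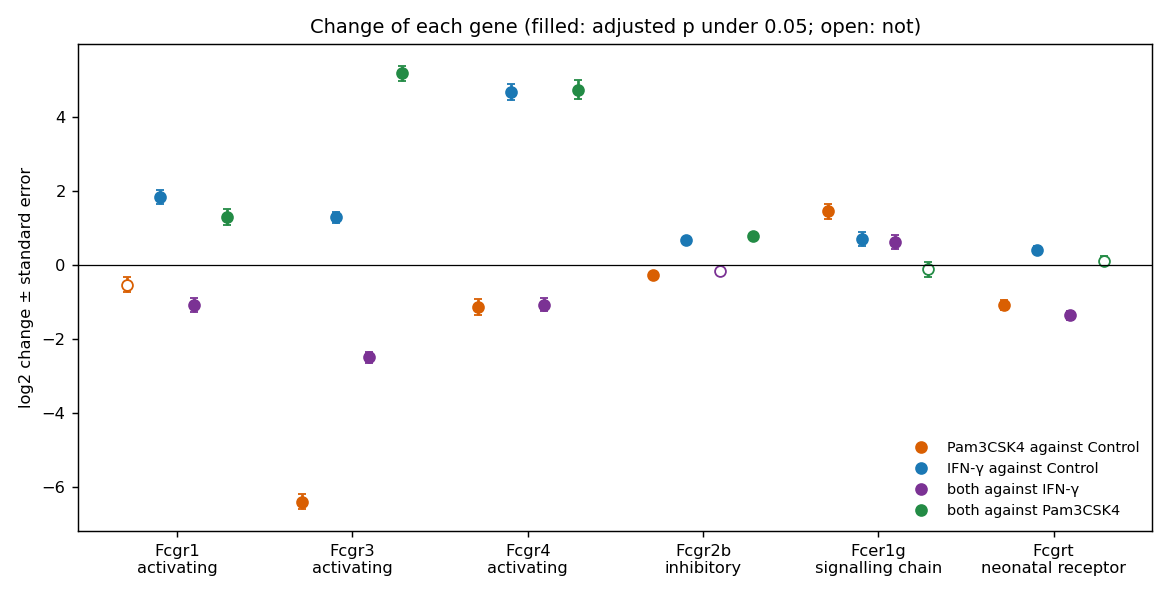
Log2 change of each gene with its standard error in 4 comparisons, from 1 edgeR fit; filled points have an adjusted p under 0.05 and open points do not. Fcgr3 with Pam3CSK4 (-6.39) and Fcgr4 with IFN-gamma (4.67) lie farthest from 0 among comparisons with Control, and Fcgr2b stays within 1 log2 unit of 0 in all 4.

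On the deposited FPKM, activating transcripts outweighed the inhibitory one in every library, but by very different amounts. The summed FPKM of Fcgr1, Fcgr3 and Fcgr4 divided by that of Fcgr2b was 9.87, 9.85 and 7.27 in the Control libraries and 1.84 and 2.50 in the Pam3CSK4 libraries. It was 24.1, 23.1 and 24.8 with IFN-gamma and 8.68, 9.36 and 10.9 in the combined libraries. The Pam3CSK4 libraries were lowest and the IFN-gamma libraries highest, each clear of the rest, while the combined and Control libraries overlapped. On counts, which take no account of gene length, the same ratio was 0.654 and 0.902 in the Pam3CSK4 libraries, so that Fcgr2b was above the activating sum there, and 2.58 to 8.77 in all others. On the log2 scale the mean ratio differed from Control by -2.05 with Pam3CSK4 (pooled SD 0.29), by 1.43 with IFN-gamma (pooled SD 0.18) and by 0.11 with both (pooled SD 0.22), the last being within the spread between libraries. Its sign turned to -0.038 without Control replicate 3 and to -0.13 without the 3 stromal-marked libraries. No p is given for these ratios, because the genes were chosen with earlier results of these data known.

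The 3 activating genes contributed unequally to that ratio. The log2 ratio of Fcgr3 to Fcgr2b was 2.64 ± 0.25 in Control (SD, n = 3), -3.48 ± 0.10 with Pam3CSK4 (SD, n = 2), 3.26 ± 0.08 with IFN-gamma (SD, n = 3) and 0.94 ± 0.05 with both (SD, n = 3). For Fcgr4 it was -0.74 ± 0.34, -1.57 ± 0.09, 3.28 ± 0.07 and 2.38 ± 0.20 in the same order. For Fcgr1 it was 1.04 ± 0.30, 0.78 ± 0.38, 2.22 ± 0.11 and 1.31 ± 0.19, and the difference between the combined group and Control was 0.27 against a pooled SD of 0.25, and -0.018 without the 3 stromal-marked libraries. Against Control, the combined group thus had a lower Fcgr3 ratio, by -1.71 (pooled SD 0.18), and a higher Fcgr4 ratio, by 3.12 (pooled SD 0.28).

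By FPKM the make-up of the receptor transcripts differed between groups. In Control, Fcgr3 made up 62.9% of the summed FPKM of the 4 receptor genes, Fcgr1 20.8%, Fcgr2b 10.2% and Fcgr4 6.13%. With Pam3CSK4, Fcgr1 made up 54.5% and Fcgr2b 31.9%, Fcgr4 10.7% and Fcgr3 2.89%. With IFN-gamma, Fcgr4 and Fcgr3 were level at 39.0% and 38.4%, with 18.7% for Fcgr1 and 4.00% for Fcgr2b. In the combined group Fcgr4 led with 49.2%, followed by Fcgr1 at 23.3%, Fcgr3 at 18.1% and Fcgr2b at 9.46%. The summed level itself was 250 ± 30.3 FPKM in Control (SD, n = 3), 66.7 ± 5.88 with Pam3CSK4 (SD, n = 2), 939 ± 46.0 with IFN-gamma (SD, n = 3) and 357 ± 36.1 with both (SD, n = 3). Fcer1g per summed activating receptor was 2.67 ± 0.184 in Control (SD, n = 3), 37.6 ± 7.40 with Pam3CSK4 (SD, n = 2), 1.03 ± 0.157 with IFN-gamma (SD, n = 3) and 4.49 ± 0.472 with both (SD, n = 3).

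**Figure D3:**
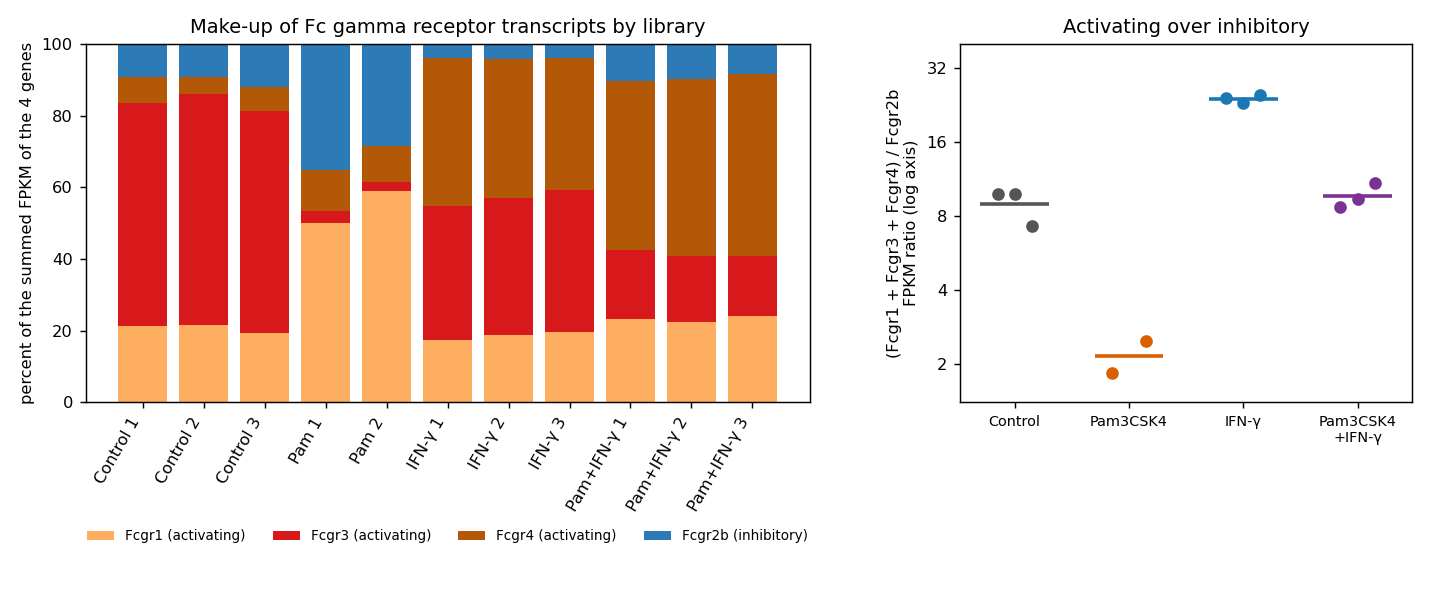
Left, the share of the summed FPKM of the 4 receptor genes that each gene made up, as a percentage in every library; right, the FPKM ratio of the 3 activating genes to Fcgr2b on a log axis, with 1 point per library and a bar for the group mean. The Pam3CSK4 libraries lie at 1.84 and 2.50, the IFN-gamma libraries at 23.1 to 24.8, and the Control and combined libraries overlap.

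Levels of different genes, unlike changes of a single gene, depend on the length that FPKM divides by. The deposited values imply lengths of 3829 bases for Fcgr3 and 7526 for Fcgr2b, against 1347 and 3544 bases for the longest coding transcript of each in GENCODE M21. With the latter lengths, an alternative added after the values were seen, the activating to inhibitory ratio was 9.83 ± 1.63 in Control (SD, n = 3), 1.20 ± 0.241 with Pam3CSK4 (SD, n = 2), 19.9 ± 0.890 with IFN-gamma (SD, n = 3) and 6.35 ± 0.615 with both (SD, n = 3), so that the combined group lay below Control. Fcer1g per summed activating receptor was then 2.71 ± 0.185 in Control (SD, n = 3), 74.7 ± 13.6 with Pam3CSK4 (SD, n = 2), 1.37 ± 0.192 with IFN-gamma (SD, n = 3) and 7.52 ± 0.643 with both (SD, n = 3), in the same order of groups as on the deposited FPKM. Fcgr3 would then stand at 1024 FPKM with IFN-gamma against 367 for Fcgr4, and at 183 against 176 in the combined group, and Fcgr2b at 44.9 FPKM against 41.2 for Fcgr1 with Pam3CSK4. The order of Fcgr3 and Fcgr4 in both groups given interferon-gamma, and of Fcgr1 and Fcgr2b with Pam3CSK4, therefore cannot be read from these data, whereas Fcgr3 led in Control and was lowest with Pam3CSK4 under both lengths.

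Of 97 genes tested on 8 lists of the pathway, 58 (59.8%) were called with Pam3CSK4 against Control, where 41.4% of all genes tested were called. With IFN-gamma against Control 55 (56.7%) were called, against 41.6% of all genes, and in the combined group against IFN-gamma 55 (56.7%), against 34.2%. With Pam3CSK4 the activating signalling, inhibitory signalling and actin lists were called at 38.5% to 46.7%, near the share of all genes, and the higher shares were in lists of other receptors and adaptors. Every change given below for a gene of these lists passed edgeR's threshold over all genes unless an adjusted p above it is printed. Of 30 receptor-proximal activating genes tested, 9 were higher and 5 lower with Pam3CSK4 (46.7% called, against 41.4% of all genes), with a median log2 change of 0.11 against -0.04 over all genes tested. Syk, the kinase that binds the phosphorylated ITAM, went from 12.7 ± 1.99 FPKM in Control (SD, n = 3) to 57.2 ± 1.73 with Pam3CSK4 (SD, n = 2), a change of 2.14 ± 0.15 on the log2 scale (edgeR adjusted p = 8.88e-06). Pik3r5, a regulatory subunit of PI3-kinase gamma, rose by 2.90 ± 0.20 and the adaptor gene Blnk by 2.53 ± 0.21. Of the Src-family kinase genes, Fgr and Fyn changed by -2.09 ± 0.21 and -1.80 ± 0.22, and Lyn was at 0.15 ± 0.18 (edgeR adjusted p = 0.528). With IFN-gamma 5 of the 30 were higher and 9 lower (46.7%, against 41.6% of all genes), with a median of -0.08 against -0.07 over all genes tested. The adaptor gene Lcp2 rose by 1.75 ± 0.18 and Lyn by 0.63 ± 0.16 (adjusted p = 0.0541 by edgeR on only the compared groups), while Plcg1 and Pik3cg changed by -1.04 ± 0.08 and -0.68 ± 0.15. Syk changed with IFN-gamma by -0.48 ± 0.14 (edgeR adjusted p = 0.0188), a call lost without Control replicate 1 (-0.33) or IFN-gamma replicate 2 (-0.45), with no filter (-0.42) and with only the compared groups (-0.46). In the combined group against IFN-gamma 10 were higher and 4 lower (46.7%, against 34.2% of all genes), with Syk at 2.76 ± 0.14 and Pik3r5 at 2.50 ± 0.19 among the first and Fgr at -1.46 ± 0.17 and Fyn at -0.998 ± 0.18 among the second.

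Inhibitory signalling genes showed 3 of 13 tested higher and 2 lower with Pam3CSK4 (38.5% called, against 41.4% of all genes), with a median log2 change of 0.10 against -0.04 over all genes tested. Inpp5d, the lipid phosphatase gene that acts downstream of Fcgr2b, went from 46.1 ± 7.59 FPKM in Control (SD, n = 3) to 24.9 ± 0.435 with Pam3CSK4 (SD, n = 2), a change of -0.91 ± 0.16 on the log2 scale (edgeR adjusted p = 0.00165). Pag1, an adaptor that recruits the inhibitory kinase Csk, changed by -1.76 ± 0.21, and the adaptor genes Dok3 and Sla rose by 1.48 ± 0.24 and 2.20 ± 0.53, the latter call being lost without Pam3CSK4 replicate 1 (1.91, edgeR adjusted p = 0.0557). With IFN-gamma 4 were higher and 2 lower (46.2%, against 41.6% of all genes), with a median of -0.10 against -0.07 over all genes tested. Dok2, an adaptor that damps Ras signalling, rose by 3.19 ± 0.18, and Ptpn6, the tyrosine phosphatase recruited by ITIM receptors, by 0.81 ± 0.17. Pag1 and Ptpn12 changed by -1.17 ± 0.18 and -0.66 ± 0.09, and Inpp5d was at -0.33 ± 0.14 (edgeR adjusted p = 0.0869). Inpp5d was called without Control replicate 3 (-0.45, edgeR adjusted p = 0.00617) and without the 3 stromal-marked libraries (-0.43, edgeR adjusted p = 0.021). It was also called with upper-quartile scaling (-0.37, edgeR adjusted p = 0.0441) and by limma with either pseudocount (-0.40 and -0.41, limma adjusted p = 0.0156 and 0.0154). In the combined group against IFN-gamma 5 were higher and 3 lower (61.5%, against 34.2% of all genes), with Dok3 at 1.32 ± 0.22, Dok2 at -1.67 ± 0.17 and Inpp5d at -0.64 ± 0.14, all called. Ptpn6 was at -0.30 ± 0.17 there (edgeR adjusted p = 0.220). It was called without Control replicate 3 (edgeR adjusted p = 0.0335) and without the 3 stromal-marked libraries (-0.34, edgeR adjusted p = 0.0141).

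**Figure D4:**
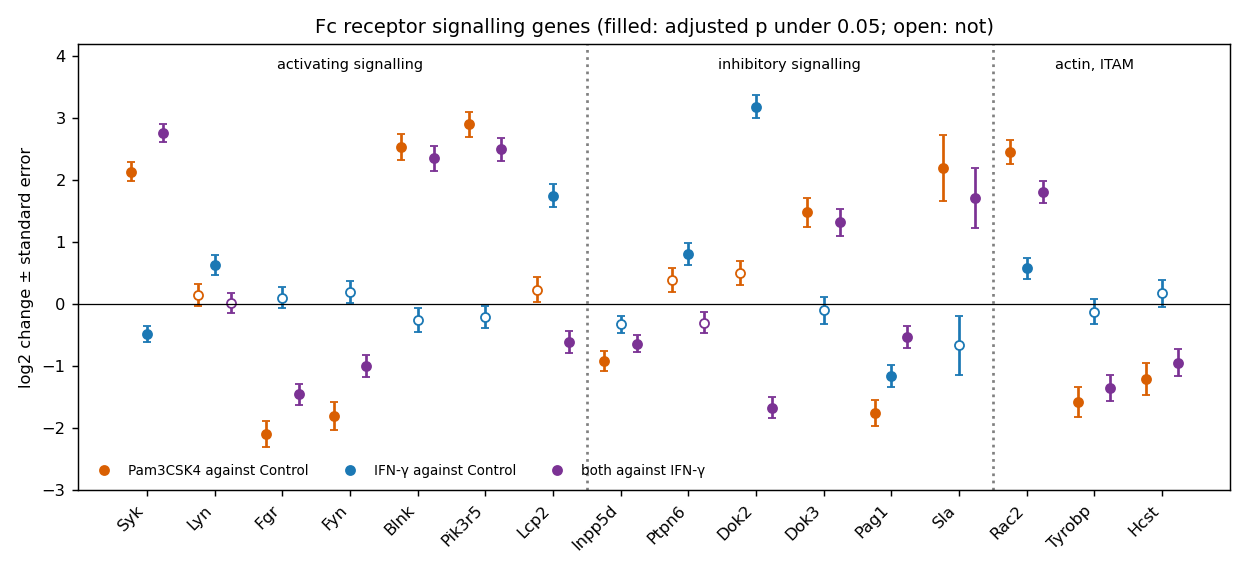
Log2 change with its standard error of 16 genes that act with or downstream of the receptors, in 3 comparisons from 1 edgeR fit; filled points have an adjusted p under 0.05. Syk is higher by 2.14 with Pam3CSK4 against Control and by 2.76 in the combined group against IFN-gamma, while Tyrobp changes by -1.58 and -1.36.

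Among phagocytic cup and actin genes, 7 of 23 tested were higher and 3 lower with Pam3CSK4 (43.5% called, against 41.4% of all genes), with a median log2 change of 0.11 against -0.04 over all genes tested. Rac2, the GTPase gene of blood cells, rose by 2.45 ± 0.19, from 59.9 ± 12.3 FPKM (SD, n = 3) to 335 ± 21.7 (SD, n = 2), while Bin1 changed by -1.29 ± 0.21. Coro1a rose by 0.92 ± 0.20, a call lost with only the compared groups (0.94, edgeR adjusted p = 0.0558). Rac1 changed by -1.68 ± 0.41, a call lost without either Pam3CSK4 library (edgeR adjusted p = 0.0690 and 0.0606). With IFN-gamma 8 were higher and 4 lower (52.2%, against 41.6% of all genes), with a median of 0.21 against -0.07 over all genes tested, and the actin-severing gene Cfl1 rose by 0.76 ± 0.11. In the combined group against IFN-gamma 3 were higher and 4 lower (30.4%, against 34.2% of all genes), with Rac2 at 1.81 ± 0.18 and Bin1 at -1.36 ± 0.18.

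The other ITAM adaptor of microglia, Tyrobp, moved against Fcer1g. Tyrobp had 2482 ± 543 FPKM in Control (SD, n = 3), 850 ± 30.7 with Pam3CSK4 (SD, n = 2), 2152 ± 249 with IFN-gamma (SD, n = 3) and 849 ± 119 with both (SD, n = 3). It changed by -1.58 ± 0.24 with Pam3CSK4 (edgeR adjusted p = 0.000790) and by -1.36 ± 0.21 in the combined group against IFN-gamma (edgeR adjusted p = 0.00101), and was at -0.12 ± 0.21 with IFN-gamma (edgeR adjusted p = 0.664). The adaptor gene Hcst changed alongside it by -1.21 ± 0.26 with Pam3CSK4 and -0.94 ± 0.22 in the combined group against IFN-gamma. Cd79b, the B-cell receptor chain named above, rose by 2.58 ± 0.43 with Pam3CSK4 and was the remaining adaptor of the 3 tested.

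Receptors listed as partners of the Fcer1g chain changed strongly with Pam3CSK4, 6 of 8 tested being higher and 2 lower (100% called, against 41.4% of all genes), with a median log2 change of 1.63 against -0.04 over all genes tested. Clec4e, which encodes the lectin Mincle, went from 1.10 ± 0.381 FPKM in Control (SD, n = 3) to 31.4 ± 0.0243 with Pam3CSK4 (SD, n = 2), a log2 change of 4.84 ± 0.23. The lectin gene Clec4a1 went from 0.601 ± 0.345 FPKM (SD, n = 3) to 99.0 ± 24.5 (SD, n = 2), a change of 7.35 ± 0.41. The 2 that fell, Siglech (-3.18 ± 0.50) and Cd300lb (-2.03 ± 0.45), encode receptors better known to pair with the Tyrobp chain, and Siglech is also on the microglial marker list. Pairing of any listed receptor with the Fcer1g chain, those of Clec4a1 and Clec4a3 included, was not tested here. The Cd300lb call was lost without Pam3CSK4 replicate 1 (-1.81, edgeR adjusted p = 0.0577) and with only the compared groups (-2.01, edgeR adjusted p = 0.0589). With IFN-gamma 3 of the 8 were higher and 3 lower (75% called, against 41.6% of all genes), Cd300ld and Clec4d among the latter at -1.33 ± 0.28 and -0.998 ± 0.26. The Clec4d call was lost with only the compared groups (-0.97, edgeR adjusted p = 0.0539). In the combined group against IFN-gamma 6 were higher and 2 lower (100%, against 34.2% of all genes), with a median of 2.41 against -0.02 over all genes tested, with Clec4a1 at 6.47 ± 0.37 and Clec4a3 at 4.10 ± 0.18 among the first.

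Other receptors listed with ITIM motifs moved in both directions. With Pam3CSK4 9 of 16 tested were higher and 6 lower (93.8% called, against 41.4% of all genes), with a median log2 change of 0.83 against -0.04 over all genes tested. Siglece, a sialic acid receptor gene, went from 3.08 ± 0.295 FPKM (SD, n = 3) to 31.7 ± 0.0820 (SD, n = 2), a change of 3.35 ± 0.16, and the lectin gene Clec12a rose by 3.02 ± 0.26. Cd300lf and Cd300a changed by -2.94 ± 0.14 and -1.94 ± 0.24. With IFN-gamma 7 were higher and 5 lower (75%, against 41.6% of all genes), with a median of -0.05 against -0.07 over all genes tested. The greatest rise was that of Slamf8, which encodes a SLAM family member that stands on this list although its short tail has no ITIM motif, from 1.05 ± 0.218 to 146 ± 10.8 FPKM (SD, n = 3 each), a change of 7.21 ± 0.22. Cd300lf rose by 2.39 ± 0.11 and Siglece changed by -1.66 ± 0.16, each the reverse of its change with Pam3CSK4. In the combined group against IFN-gamma 7 were higher and 6 lower (81.2%, against 34.2% of all genes), with Siglece at 4.64 ± 0.17 and Cd300lf at -1.56 ± 0.11.

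Of 13 other Fc receptor and Fc receptor-like genes 3 were expressed well enough to be tested, Fcrls and Trim21 being those above 5 FPKM. Fcrls, a microglial Fc receptor-like gene also on the microglial marker list, stood at 1028 ± 125 FPKM in Control (SD, n = 3), 359 ± 1.68 with Pam3CSK4 (SD, n = 2), 488 ± 27.2 with IFN-gamma (SD, n = 3) and 171 ± 15.6 with both (SD, n = 3). It changed by -1.54 ± 0.16 with Pam3CSK4, -0.99 ± 0.13 with IFN-gamma and -1.52 ± 0.14 in the combined group against IFN-gamma, all called by edgeR, and so was lower with interferon-gamma where all 6 members were higher. Trim21, which encodes an antibody receptor of the cytosol, rose by 1.41 ± 0.22 with Pam3CSK4 and 2.09 ± 0.21 with IFN-gamma.

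The genes whose profiles lay nearest to each member were found by Pearson's r of log2(FPKM + 1) over the 11 libraries, among 6337 tested genes with a mean of at least 5 FPKM in 1 group. The points share libraries and fall into 4 treatment groups, so r describes the group pattern and has no p. Nearest to Fcgr1 were Abhd16a, Ass1 and AB124611 (r = 0.989 for each), and Ass1 had 33.5, 22.8, 122 and 49.5 FPKM on average in Control, Pam3CSK4, IFN-gamma and combined libraries. Nearest to Fcgr4 were Irf1 (r = 0.991), Serpina3f (r = 0.987) and Idnk (r = 0.986), and Irf1, an interferon-induced transcription factor gene, averaged 6.67, 5.10, 146 and 88.2 FPKM in that order. Among those nearest to Fcgr3 were Ubash3b (r = 0.971) and Cmklr1 (r = 0.971), and Cmklr1, a chemoattractant receptor gene, averaged 20.0, 6.45, 28.7 and 18.8 FPKM. Fcgr2b had Tgm2 (r = 0.981), Scpep1 (r = 0.976) and Cers6 (r = 0.974). Fcer1g had Hcls1 (r = 0.987), Tdrd7 (r = 0.984) and Mapkapk2 (r = 0.984), and Hcls1, an actin-binding adaptor of blood cells, averaged 119, 376, 190 and 345 FPKM. Fcgrt had Ucp2 (r = 0.993), Flt1 (r = 0.990) and Gm2a (r = 0.989), and the mitochondrial carrier gene Ucp2 averaged 482, 107, 699 and 127 FPKM. Flt1 is also an endothelial marker: the 12 endothelial markers summed to 17.3 to 29.1 FPKM without Pam3CSK4 and 2.71 to 5.53 with it. Flt1 itself was at 11.0 to 28.3 FPKM without Pam3CSK4 and 1.16 to 1.55 with it. Cdh5 was at 13.7, 1.97 and 1.63 FPKM in the 3 stromal-marked libraries and at most 0.250 in the others, while Cldn5 and Slco1a4 were listed at 0. Between members, r was 0.98 for Fcgr2b with Fcgr4, 0.93 for Fcgr1 with Fcgr4, 0.64 for Fcgr3 with Fcgr4 and -0.66 for Fcgr3 with Fcer1g, so the inhibitory gene followed the group pattern of Fcgr4 at a far smaller amplitude.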

How the data were processed

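The deposited table gave, per the file headers, a read count and an FPKM value per gene and library for 11 libraries in 4 groups. The submitters' processing notes name the mm10 build, Cuffdiff, Cufflinks 2.1.1 and TopHat2 2.1.0 without their roles. Which tool counted reads, by which annotation, with or without strand, and where reads fit several genes, is not given in the sources used here, so antisense or shared reads could enter a count. Deposited FPKM equalled the deposited count over 1 constant per gene and the library total.

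Counts were fitted with edgeR 4.0.16 (R 4.3.3, quasi-likelihood, TMM scaling) in 1 model of 4 group means over 10938 genes that reached 1 FPKM in 2 or more libraries. Two-sided p-values were adjusted by Benjamini-Hochberg, with calls under 0.05. The standard error is the absolute log2 change over the square root of F. The fit was tested on simulated counts. These had the same spread for every gene and no stromal-marked library, so they cannot show how the fit handles such libraries. The interaction subtracts the effect of Pam3CSK4 without IFN-gamma from its effect with IFN-gamma. Ratios and shares are of FPKM, with no test. The members and lists were chosen with earlier results of these data known. Genes named from each list were the 2 largest called rises and falls in 3 comparisons, with a mean of at least 5 FPKM in 1 group, and Inpp5d, Ptpn6, Syk, Lyn, Tyrobp, B2m and Fcrls in any case; a few genes that these rules select are not reported here. Alternatives were other scalings and filters, DESeq2 1.42.0, limma 3.58.1 on log2(FPKM + 1) or log2(FPKM + 0.1), a replicate block, libraries left out, and only the groups compared.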

Additional observations from a re-analysis of the deposited data

Results flagged for a closer look

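The effect of Pam3CSK4 on Fcgr3 differed between cells with and without interferon-gamma, and the difference itself passed the test. It was 3.89 ± 0.22 on the log2 scale (edgeR interaction, adjusted p = 2.99e-05), from -6.39 ± 0.21 without IFN-gamma to -2.50 ± 0.14 with it, and all 8 libraries of the 3 treated groups lay outside the Control range of 135 to 174 FPKM. No group had the agonist and then medium alone, so IFN-gamma and time since the agonist cannot be told apart here.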

How the results depend on the processing

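Across 36 results on the 6 members, 27 kept their direction and their side of the threshold under every alternative run, and 718 of 750 alternative values did so. Of the changed calls, Fcgr1 with Pam3CSK4 was called by DESeq2 (-0.51), upper-quartile scaling (-0.57), limma with either pseudocount (-0.50 and -0.51) and without the 3 stromal-marked libraries (-0.70). Fcgr2b with Pam3CSK4 lost its call with no filter (-0.18), filterByExpr (-0.23) and only the compared groups (-0.24). With only the compared groups, Fcer1g and Fcgrt with IFN-gamma also lost theirs (0.73 and 0.43). Fcgr2b in the combined group against IFN-gamma was called by DESeq2 (-0.17) and upper-quartile scaling (-0.21). The Fcer1g interaction was called by DESeq2 (-0.86), limma with either pseudocount (-0.86 and -0.86) and without the 3 stromal-marked libraries (-0.69). The Fcgr4 interaction turned to -0.079 with limma on log2(FPKM + 1), and neither sign passed the threshold. The cause of these changes was not tested.

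No label ties the replicate numbers to an animal, batch or day, so whether they pair the samples is not known. Deviations of same-numbered libraries correlated from -0.72 to 0.71, over 0.1 in 6 of 15 pairs. Those of libraries with different numbers correlated from -0.75 to 0.81, over 0.1 in 17 of 30 pairs. Each of these extremes involves a stromal-marked library, so the correlations cannot show whether the libraries are paired. With a replicate block Fcer1g in the combined group against IFN-gamma lost its call (0.62, edgeR adjusted p = 0.0584), no other member's call changed, and 196 genes were lower in the combined group against Pam3CSK4, against 332 without it.

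Leaving out 1 library at a time gave -0.77 to -0.33 for Fcgr1 and -0.31 to -0.21 for Fcgr2b with Pam3CSK4, 0.28 to 0.50 for Fcgrt with IFN-gamma, 0.54 to 0.78 for Fcer1g in the combined group against IFN-gamma, and 1.09 to 1.53 for Fcgr1 against Pam3CSK4. The interaction ranged from -0.21 to 0.20 for Fcgr4, negative without Control replicate 1 or combined replicate 3, and from -0.96 to -0.64 for Fcer1g. Genes called higher ranged from 1398 to 2753 and lower from 1458 to 2879 with Pam3CSK4, 303 to 1194 and 97 to 840 in the combined group against Pam3CSK4, and 308 to 1681 and 355 to 1579 in the interaction. Pathway genes called ranged from 4 to 36 and from 10 to 50 in the last pair of comparisons, against 16 and 30 with all libraries. The balance of Fcgr1 to Fcgr2b with Pam3CSK4 ranged from -0.53 to 0.0037, the positive value being without Pam3CSK4 replicate 1, and the summed balance of the combined group against Control from -0.038 to 0.18.

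With only the compared groups, 1314 genes were higher and 1328 lower with Pam3CSK4, 1444 lower with IFN-gamma, and 1345 higher, 969 lower and 42 pathway genes called in the combined group against Pam3CSK4. In that comparison 600 genes were lower and 29 pathway genes called by DESeq2, 193 and 9 with no filter, 740 lower by limma with a pseudocount of 1 and 653 with 0.1, and 10 pathway genes called with filterByExpr. Without the 3 stromal-marked libraries it had 1195 higher, 926 lower and 41 pathway genes, and the interaction had 1606, 1509 and 46. With no filter the interaction had 441 higher and 19 pathway genes.

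The summed balance moved with the measure. On TMM-scaled CPM, which take no account of length, its log2 difference was -2.41 with Pam3CSK4, 1.03 with IFN-gamma, -0.54 for the combined group against Control and -1.57 against IFN-gamma. With the longest coding length these were -3.03, 1.03, -0.62 and -1.65. Without the 3 stromal-marked libraries the combined group against Control was -0.13, and -0.018 for Fcgr1 over Fcgr2b. Adding 1 to FPKM made the Fcgr3 to Fcgr2b difference with Pam3CSK4 -5.53. Among other genes, all uncalled, Lyn and B2m with Pam3CSK4 turned to -0.032 and -0.12 without the 3 stromal-marked libraries, and ranged from -0.032 to 0.26 and -0.12 to 0.28 when 1 library was left out. Lyn in the combined group against IFN-gamma turned to -0.023 with upper-quartile scaling and -0.064 without the 3 stromal-marked libraries, ranging from -0.038 to 0.043, and Tyrobp with IFN-gamma ranged from -0.33 to 0.027.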
